A study of Homo sapiens with 13 samples.

Results

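The hypoxia and glycolysis genes described here were 34 of the 62703 genes counted, chosen by name. They were 16 glycolytic enzymes, 6 genes of transport and regulation and 12 other known targets of hypoxia-inducible factors (HIF). The 6 serve sugar and lactate transport or regulate glycolysis or pyruvate oxidation. All 34 were found in the count tables of both ovarian carcinoma lines. Poly-A RNA was measured in 13 libraries. SKOV3 cells carried a control vector, overexpressed RSF1, a subunit of the RSF chromatin remodeller, or overexpressed RSF1delUAB, the protein without its UAB region, with 3 libraries each and no treatment given in the labels. The UAB region is the stretch by which RSF1 binds ubiquitinated histone H2A. OVCAR3 cells expressed a scrambled peptide or the UAB peptide, with 2 libraries each, and both groups received doxycycline at 2000 ng/mL for 6 days. The promoters of the vectors, the number of clones behind each line and whether replicates were separate cultures are not stated in the labels, so p-values measure only the spread between these samples. The labels name no oxygen level.

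Glycolysis splits glucose into pyruvate in the cytosol and yields ATP without oxygen. HIF is a dimer of an oxygen-labile alpha subunit and a stable partner: with oxygen, prolyl hydroxylases mark the alpha subunit for destruction through VHL, and without it the dimer binds the letters ACGTG or GCGTG, the core of the hypoxia response element. Its targets include most glycolytic enzymes, the glucose carrier of the plasma membrane, kinases that steer pyruvate away from mitochondria, carbonic anhydrases and angiogenic factors. Many carcinomas run glycolysis at a high rate also where oxygen is present.

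Between 15194678 and 18748009 reads were counted per SKOV3 library and between 18160558 and 24026993 per OVCAR3 library. The 34 genes took 2.02% to 2.24% of the counts in SKOV3 and 1.12% to 1.32% in OVCAR3. RSF1 itself stood at 42.2, 47.5 and 42.2 CPM (counts scaled by TMM to a total of 1000000) in the control libraries, 631, 775 and 749.8 with RSF1 and 459, 496 and 509 with RSF1delUAB, so the gene was overexpressed in both; which part of it was transcribed, and so the deletion, was not checked. Mitochondrial genes took 3.51% to 3.59% of the counts in SKOV3 control libraries, 4.12% to 4.33% with RSF1 and 4.39% to 5.21% with RSF1delUAB, and in OVCAR3 7.23% to 7.48% with the scrambled and 6.22% to 6.57% with the UAB peptide. Epithelial and ovarian carcinoma markers, 12 genes, summed to 9343 to 10093 CPM in SKOV3 control libraries, 4056 to 4609 with RSF1 and 8959 to 9517 with RSF1delUAB, while MUC16 had no counts with RSF1delUAB. Of the 11 tested, 6 were higher and 2 lower with RSF1, with a median log2 fold change of 0.45, so the lower sum came from abundant genes of the list and not from most of its members. Immune markers summed to at most 3.39 CPM in SKOV3, and CD3D, CD3E and MS4A1 had no counts. Fibroblast markers summed to 7.41 to 8.43 CPM in control libraries, 54.3 to 56.6 with RSF1 and 123 to 135 with RSF1delUAB, and endothelial markers to 5.43 to 7.96, 1.32 to 1.76 and 1.36 to 2.13 CPM. In OVCAR3 immune markers summed to 13.2 to 14.04 CPM with the scrambled and 7.21 to 8.79 with the UAB peptide. The part of these shifts in the results below was not tested. In bulk RNA, fewer cells of a type and less RNA per cell cannot be told apart. Of the RSF1 libraries, replicate 1 stood apart: the chi-square over its degrees of freedom was 12.7 and 14.4 against the other 2 libraries, and 3.63 between those 2. It was 13.4 between the scrambled and 11.5 between the UAB peptide libraries of OVCAR3 (2 libraries each).

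The letters of the HIF core can be read in the promoters of members that moved in opposite directions. RefSeq windows (GRCh38.p14) from 250 bases before to 50 after a transcript start were given for 31 of the 34 genes. VEGFA, NDRG1 and SLC2A3 had none and were not examined. ACGTG, searched on both strands and including the palindrome CACGTG, was present in 20 of these 31 genes (64.5%), against 24.9% of all 27305 genes with a window. It was in 24 of their 58 windows (41.4%), against 21.4% of all 35116 windows. The genes were chosen as glycolytic genes or known HIF targets, so this excess is no result of these data. GCGTG on either strand was present in 41.4% of the members' windows and 36.5% of all. CACGTG, which other factors bind as an E-box, was in 13.8% of the members' windows and 7.26% of all. The sites below are the ACGTG nearest the start in the members that changed at least 2-fold against the control vector in either construct and held one; capitals mark ACGTG or its reverse complement CACGT, and each runs 5′ to 3′ in the direction of the gene. ALDOC, ENO2 and DDIT4 were higher in both constructs.
ALDOC, chr17:28576906-28576935, minus strand: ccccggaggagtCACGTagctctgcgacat
ENO2, chr12:6914450-6914479, plus strand: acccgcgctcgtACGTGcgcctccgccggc
DDIT4, chr10:72273787-72273816, plus strand: agaacgttgcttACGTGcgcccggagtcca
CA9 was lower with RSF1 alone, and ANGPTL4 and ANKRD37 were lower in both constructs.
CA9, chr9:35673898-35673927, plus strand: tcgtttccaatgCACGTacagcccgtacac
ANGPTL4, chr19:8363909-8363938, plus strand: ggaaagaagagtCACGTctcccacggttcg
ANKRD37, chr4:185396686-185396715, plus strand: cagtgtttgtgtACGTGcggccgtggcggg
The printed CA9 run ends at the last base before the start. The EGLN3 window held no ACGTG. For ALDOC, the member with the largest rise, the longer stretch before its first exon, which also holds the palindrome, is shown.
ALDOC, chr17:28576949-28577145, minus strand: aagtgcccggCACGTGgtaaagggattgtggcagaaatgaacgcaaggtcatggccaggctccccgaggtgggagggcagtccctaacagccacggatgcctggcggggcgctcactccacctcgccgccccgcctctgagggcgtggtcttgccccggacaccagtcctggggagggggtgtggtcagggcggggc
Such a match is a description of letters, not of binding, and the next paragraphs give the transcript values of these genes.

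Per exon length of the gene (TPM), several later steps of glycolysis stood far above the first ones. That length holds all annotated exon bases of a gene and not 1 transcript, so the order partly follows the annotation. In SKOV3 control libraries GPI (10680 bases) read 445 CPM and 163 TPM, and PGAM1 (2540 bases) 303 CPM and 467 TPM. In SKOV3 control libraries the order of the 34 genes opened with enolase ENO1 at 3823 ± 103 TPM (mean ± SD, n = 3) and GAPDH, the dehydrogenase of glyceraldehyde phosphate, at 3685 ± 83.2. LDHA, which reduces pyruvate to lactate, followed at 2539.6 ± 50.7, and pyruvate kinase PKM stood at 2447 ± 85.4. TPI1 (934 ± 18.7), PGK1 (718 ± 11.5) and PGAM1 (467 ± 5.42) came next. At the entry of the pathway hexokinase HK1 stood at 125 ± 4.8 TPM and HK2, its HIF-responsive relative, at 24.3 ± 1.35. Neuronal-type enolase ENO2 reached 12.4 ± 0.305 TPM and brain aldolase ALDOC 1.55 ± 0.673 TPM.
OVCAR3 with the scrambled peptide is set beside these without a test, since line, vector and doxycycline differ. There LDHA stood at 442 ± 11.6 TPM (n = 2), PFKP, the platelet-type phosphofructokinase, at 15.4 ± 1.77 against 205 ± 7.33 in SKOV3, and PFKM, the muscle type, at 31.5 ± 0.272 against 8.74 ± 0.973. ALDOA, the widespread aldolase, read only 35.8 ± 4.39 TPM in SKOV3 control libraries. Of its exon bases 54.2% are shared with other genes, 42.8% with a gene on the same strand, and whether the counting dropped such reads is not given, so its level and every share against ALDOA are uncertain. SLC2A3, a neuronal glucose carrier, had at most 1 read in a library of either line and was not tested, and neither was CA9 in OVCAR3.

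**Figure D1:**
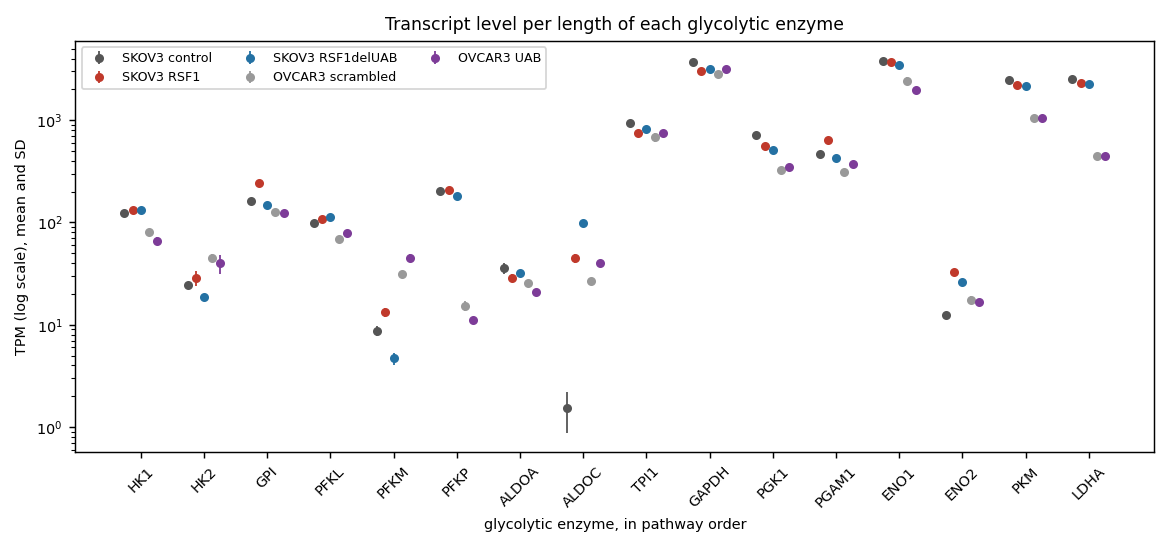
Transcript level of the 16 glycolytic enzymes in pathway order, in TPM on a log axis, as mean and SD of 3 (SKOV3) or 2 (OVCAR3) libraries per group. ENO1, GAPDH, LDHA and PKM lie highest in SKOV3, and ALDOC spans the widest range, from 1.55 ± 0.673 TPM in control to 98 ± 5.21 TPM with RSF1delUAB.

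Overexpression of RSF1 was compared with the control vector to see what added RSF1 does to transcript levels. The hypoxia and glycolysis genes moved in both directions, as all tested genes did. Of 33 tested, 10 rose and 15 fell (edgeR quasi-likelihood test, Benjamini-Hochberg adjusted p under 0.05), where 67.3% of all 16735 tested genes passed in either direction, 34.3% higher and 32.9% lower. Their median log2 fold change was -0.13, against 0.015 for all genes, and their median absolute change was 0.37, against 0.56. Of the 25 that passed, 24 had no overlap between the groups, as had 95.8% of all genes that passed. With upper-quartile scaling the split was 12 higher and 10 lower (all genes 6343 and 4889, against 5747 and 5514), and with library totals alone it was 11 and 11 (all genes 6168 and 5060). Without RSF1 replicate 1 it was 11 higher and 16 lower (all genes 5900.0 and 5733).

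Among the 16 enzymes 6 rose and 6 fell (all genes 34.3% and 32.9%). ALDOC, which splits fructose bisphosphate and is known from brain, stood at 1.32, 1.26 and 0.517 CPM in the control libraries and 31.5, 32 and 26.8 with RSF1, log2 fold change 4.86 (SE 0.17, adjusted p = 3e-15). The groups were far apart, and the control level rested on 8 to 20 reads per library. ENO2 went from 13.8, 13.3 and 13.7 CPM to 37.9, 33.8 and 37.4, log2 fold change 1.42 (SE 0.090, adjusted p = 2.86e-11). GPI, which turns glucose 6-phosphate into fructose 6-phosphate, went from 466, 440.3 and 429.7 to 672, 652 and 666 CPM, log2 fold change 0.58 (SE 0.058, adjusted p = 2.81e-08). Every RSF1 library exceeded every control library for these 3 genes. The other tested genes within 10 Mb of GPI had a median log2 fold change of 0.63, about the size of its own, and with those neighbours' median taken off GPI read -0.058 and did not pass; for ALDOC (0.048) and ENO2 (-0.024) the neighbours stood near 0. PFKM also rose, from 18.2, 15.4 and 15 to 23.2, 24.9 and 26.3 CPM, log2 fold change 0.62 (SE 0.11, adjusted p = 5.37e-05), and PGAM1, the phosphoglycerate mutase, rose by 0.46 on the log2 scale (adjusted p = 4.31e-06).
HK2 stood at 39, 35.8 and 35.5 CPM in control and 37.8, 42.4 and 50.04 with RSF1, log2 fold change 0.24 (SE 0.096, adjusted p = 0.0325). This is the 1 called member whose groups overlapped, and leaving out control replicate 2, control replicate 3 or RSF1 replicate 3 ended its call. The neighbours of HK2 had a median of 0.32, and relative to them it read -0.075 and did not pass.
The falls were small, between -0.37 and -0.14 on the log2 scale. PGK1, the first ATP-forming kinase of the pathway, went from 1011, 986 and 998 CPM to 812, 752 and 758, log2 fold change -0.37 (SE 0.055, adjusted p = 5.8e-06). GAPDH went from 2308, 2236 and 2229 to 1975, 1833 and 1834 CPM, log2 fold change -0.26 (SE 0.052, adjusted p = 0.000158). Triose isomerase TPI1 went from 657, 637 and 641 to 572, 489 and 493 CPM, log2 fold change -0.32 (SE 0.063, adjusted p = 0.000182). RSF1 libraries lay below every control library in each of the 3. ALDOA (-0.31), PKM (-0.14) and LDHA (-0.14) also passed as lower, and all 3 lost the call under upper-quartile scaling, which gave 8 enzymes higher and 3 lower (library totals alone: 7 and 4). HK1, PFKL, PFKP and ENO1 did not pass, with log2 fold changes of 0.079, 0.14, 0.036 and -0.028. PFKL missed the threshold narrowly (adjusted p = 0.0547) and passed as higher under 10 of 16 alternatives, other scalings, DESeq2 and limma-voom among them. ENO1 passed as lower without RSF1 replicate 1 (adjusted p = 0.0349). HK1 under upper-quartile scaling and PFKP relative to its neighbours passed as higher. ALDOA also lost its call without control replicate 2 or RSF1 replicate 2, PKM without control replicate 1 or 2 or RSF1 replicate 2, and LDHA without any 1 of 5 libraries (each control replicate and RSF1 replicates 2 and 3).

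Of the 5 tested genes of transport and regulation, 1 rose and 4 fell (all genes 34.3% and 32.9%). PFKFB3, whose product makes fructose 2,6-bisphosphate and so speeds phosphofructokinase, went from 82, 78.1 and 76 CPM to 133, 156 and 161, log2 fold change 0.93 (SE 0.075, adjusted p = 9.75e-10). SLC2A1, the glucose carrier GLUT1, went from 673, 663 and 617 to 411, 428 and 456 CPM, log2 fold change -0.59 (SE 0.061, adjusted p = 3.85e-08). PDK1, a kinase that holds pyruvate dehydrogenase inactive, went from 37, 34.8 and 35 to 21.7, 30.9 and 23.9 CPM, log2 fold change -0.48 (SE 0.10, adjusted p = 0.000422). The groups did not overlap for any of these, so the RNA of SLC2A1 and PDK1 was lower while that of PFKFB3 was higher. SLC16A3, the lactate exporter MCT4, stood at 773, 819 and 718 CPM in control and 698, 636 and 700.4 with RSF1, log2 fold change -0.18 (SE 0.064, adjusted p = 0.0154), a call that ended without control replicate 1 or 2 or RSF1 replicate 2. PFKFB4, a second enzyme of the PFKFB family, passed narrowly as lower (log2 fold change -0.25 (SE 0.10, adjusted p = 0.039)). Its neighbours' median was -0.59, and relative to that median its value was 0.34 and passed as higher. The call as lower also ended without control replicate 2 or 3 or RSF1 replicate 1 or 2. The same held under upper-quartile scaling, library totals alone and DESeq2.

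Of the 12 other HIF targets 3 rose and 5 fell (all genes 34.3% and 32.9%), with the largest single falls of the members. CA9, a carbonic anhydrase at the cell surface that is widely read as a marker of hypoxic tumour tissue, stood at 10.9, 10.4 and 11.6 CPM in the control libraries and 2.22, 1.52 and 1.57 with RSF1, log2 fold change -2.63 (SE 0.17, adjusted p = 3.31e-11). That is a 6.2-fold lower level, on 157 to 180 reads per control library and 24 to 34 per RSF1 library, with no overlap. Its exons share 35.7% of their bases with ARHGEF39 on the opposite strand, and whether the counting used strand is not given. NDRG1, a stress-induced differentiation gene, went from 309.8, 303 and 285 CPM to 143, 153 and 148, log2 fold change -1.02 (SE 0.062, adjusted p = 1.33e-11). VEGFA, the main angiogenic growth factor, went from 158, 163 and 167 to 89.1, 87.5 and 89.5 CPM, log2 fold change -0.88 (SE 0.067, adjusted p = 4.73e-10). All 3 RSF1 libraries lay well below all control libraries for each. The neighbours of NDRG1 stood at -0.30 and those of VEGFA at 0.41, and relative to them both genes passed as lower. ANKRD37 (log2 fold change -1.05 (SE 0.25, adjusted p = 0.00088)) and the lipase inhibitor ANGPTL4 (log2 fold change -0.61 (SE 0.19, adjusted p = 0.00703)) also fell. The neighbours of ANKRD37 stood at -0.49, and relative to them it read -0.56 and did not pass (adjusted p = 0.0557).
Against these, DDIT4, an inhibitor of mTORC1 that many stresses induce, went from 85.3, 80.3 and 84.3 to 184, 164 and 193 CPM, log2 fold change 1.11 (SE 0.071, adjusted p = 3.05e-11). CA12, the second membrane carbonic anhydrase, went from 209, 207 and 201 to 365, 410.4 and 413 CPM, log2 fold change 0.95 (SE 0.063, adjusted p = 5.36e-11). ADM, which encodes the vasodilator adrenomedullin, went from 27.2, 27.1 and 27.4 to 56.9, 45.7 and 54.1 CPM, log2 fold change 0.94 (SE 0.089, adjusted p = 1.25e-08). For all 3 the RSF1 libraries were entirely above the control libraries, so CA9 and CA12 moved in opposite directions in the same cells. The neighbours of ADM had a median of 0.39, and relative to them it read 0.55 and passed. BNIP3, EGLN3, P4HA1 and KDM3A did not pass, with log2 fold changes of -0.13, -0.20, 0.0043 and -0.11. BNIP3 passed as lower without RSF1 replicate 1 (adjusted p = 0.000644), the library that stood apart. Relative to their neighbours EGLN3 and KDM3A passed as lower, while BNIP3 read 0.20 and did not pass.

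**Figure D2:**
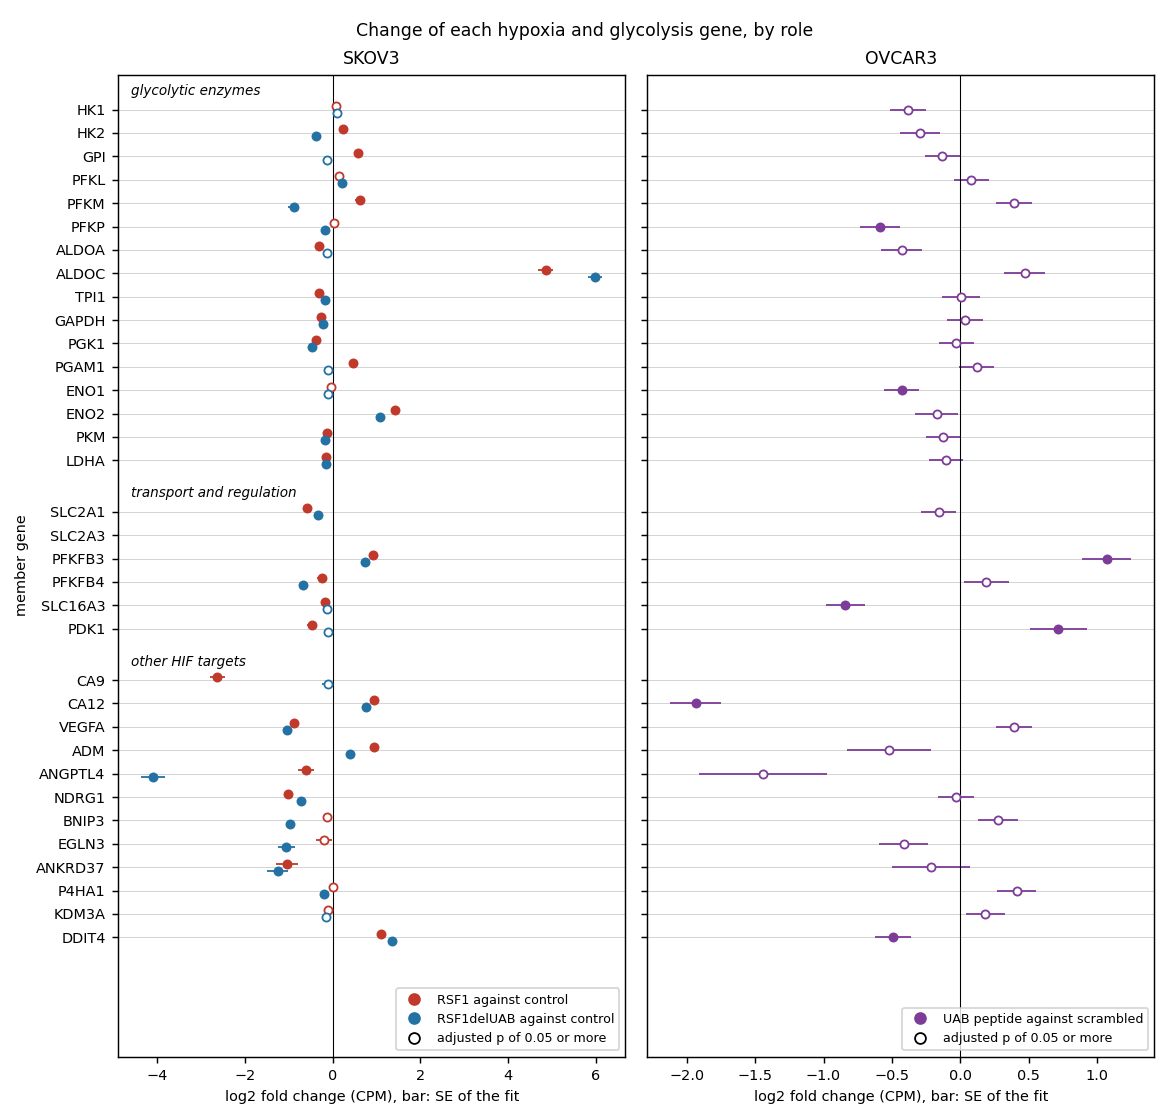
Log2 fold change with its standard error for each member by role: left, RSF1 (red) and RSF1delUAB (blue) against the SKOV3 control vector; right, the UAB peptide against the scrambled peptide in OVCAR3. Filled points passed an adjusted p of 0.05; ALDOC at 4.86 and 5.99 and ANGPTL4 at -4.09 lie farthest from 0 in SKOV3, and CA12 at -1.93 in OVCAR3.

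RSF1delUAB was compared with the same 3 control libraries, so its values and those of RSF1 share their controls. Of 33 members 7 rose and 17 fell, where 66.6% of all genes passed, 34.5% higher and 32.1% lower. The median was -0.15, against 0.015 for all genes, and the median absolute change 0.33, against 0.55. All 24 calls had groups without overlap, as had 97.9% of all genes that passed. With library totals alone 8 rose and 13 fell, and the split of all genes moved from 5774 higher and 5376 lower to 6109 and 4991.

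Of the enzymes 3 rose and 8 fell with RSF1delUAB (all genes 34.5% and 32.1%). ALDOC reached 63.1, 68.2 and 67.1 CPM, log2 fold change 5.99 (SE 0.16, adjusted p = 4.53e-17). ENO2 reached 29.8, 27.6 and 29.1 CPM, log2 fold change 1.08 (SE 0.091, adjusted p = 1.92e-09). PFKL, the liver-type phosphofructokinase, went from 219.8, 237 and 221 to 268, 252 and 268 CPM, log2 fold change 0.22 (SE 0.061, adjusted p = 0.00374). The RSF1delUAB libraries were above all control libraries for the 3. PFKM fell here, to 8.29, 8.03 and 9.98 CPM, log2 fold change -0.89 (SE 0.12, adjusted p = 1.82e-06), and HK2 fell to 26.1, 29.2 and 29.5 CPM, log2 fold change -0.38 (SE 0.098, adjusted p = 0.00194). Both had passed as higher with RSF1, and their RSF1delUAB libraries were the lowest of the 9. The neighbours of HK2 had a median of 0.37, and relative to them it read -0.75 and passed. PGK1 stood at 729.7, 714 and 723 CPM, log2 fold change -0.47 (SE 0.055, adjusted p = 2.42e-07), and GAPDH at 1961, 1919 and 1962 CPM, log2 fold change -0.21 (SE 0.052, adjusted p = 0.00122), both below every control library. PKM (-0.17), TPI1 (-0.17), PFKP (-0.17) and LDHA (-0.15) fell slightly. TPI1, PFKP and LDHA lost their calls under upper-quartile scaling (3 enzymes higher, 5 lower) and under library totals alone (4 higher, 5 lower), and each also without 3 to 5 single libraries, RSF1delUAB replicates 1 and 2 among them; PKM lost its call without RSF1delUAB replicate 2. With the neighbours' median taken off, GAPDH and TPI1 did not pass, and PFKP read 0.15 and passed as higher, a change of sign. HK1, GPI, ALDOA, PGAM1 and ENO1 did not pass, with log2 fold changes between -0.13 (ALDOA) and 0.098 (HK1).

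Of the 5 tested genes of transport and regulation 1 rose and 2 fell (all genes 34.5% and 32.1%). PFKFB3 stood at 129, 136 and 127 CPM, log2 fold change 0.73 (SE 0.075, adjusted p = 3.46e-08). SLC2A1 stood at 533, 499 and 523 CPM, log2 fold change -0.33 (SE 0.061, adjusted p = 8.12e-05). PFKFB4 went from 17.4, 19.3 and 18 to 11.9, 11.9 and 10.6 CPM, log2 fold change -0.67 (SE 0.11, adjusted p = 1.23e-05). None of the 3 overlapped with control, and the median of PFKFB4's neighbours was -0.57, relative to which it did not pass. PDK1 (-0.10) and SLC16A3 (-0.12) did not pass.

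Of the other HIF targets 3 rose and 7 fell (all genes 34.5% and 32.1%). ANGPTL4, which inhibits lipoprotein lipase, went from 10.9, 10.5 and 10.2 CPM to 0.744, 0.924 and 0.123, log2 fold change -4.09 (SE 0.27, adjusted p = 4.47e-11), a 17.1-fold lower level by the fit. The libraries with RSF1 lay between the other groups at 7.37, 6.1 and 7.29 CPM. VEGFA stood at 83.8, 81.3 and 73.5 CPM, log2 fold change -1.03 (SE 0.067, adjusted p = 3.87e-11). NDRG1 stood at 183, 181 and 185 CPM, log2 fold change -0.71 (SE 0.061, adjusted p = 2.69e-09). Both were below every control library, as they were with RSF1. BNIP3, a mitophagy receptor of the outer mitochondrial membrane, fell to 42.3, 39.3 and 39.7 CPM from 77.5, 73.2 and 86.5, log2 fold change -0.97 (SE 0.10, adjusted p = 4.07e-08), beside a neighbours' median of -0.31. Of the reads on BNIP3 and its 44 pseudogenes, 0.41% to 14.8% per library were assigned to the pseudogenes. EGLN3 (log2 fold change -1.06 (SE 0.19, adjusted p = 7.05e-05)), a HIF prolyl hydroxylase that is itself a HIF target, and P4HA1 (log2 fold change -0.21 (SE 0.069, adjusted p = 0.0127)), a collagen prolyl hydroxylase, fell too; the P4HA1 call ended under library totals and without control replicate 1 or RSF1delUAB replicate 2 or 3. ANKRD37 fell by 1.26 on the log2 scale, with its neighbours at -0.80, and did not pass relative to them. Of the 3 rises, DDIT4 reached 223, 206 and 208 CPM, log2 fold change 1.35 (SE 0.071, adjusted p = 1.55e-12). CA12 reached 346, 353 and 342 CPM, log2 fold change 0.75 (SE 0.063, adjusted p = 1.61e-09). ADM reached 33.3, 36.6 and 37.9 CPM, log2 fold change 0.40 (SE 0.091, adjusted p = 0.00063). No library overlapped with control, and relative to its neighbours ADM read -0.060 and did not pass. CA9 stood at 9.78, 10.5 and 10.5 CPM, log2 fold change -0.10 (SE 0.13, adjusted p = 0.495), so the fall seen with RSF1 was not detected here.

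**Figure D3:**
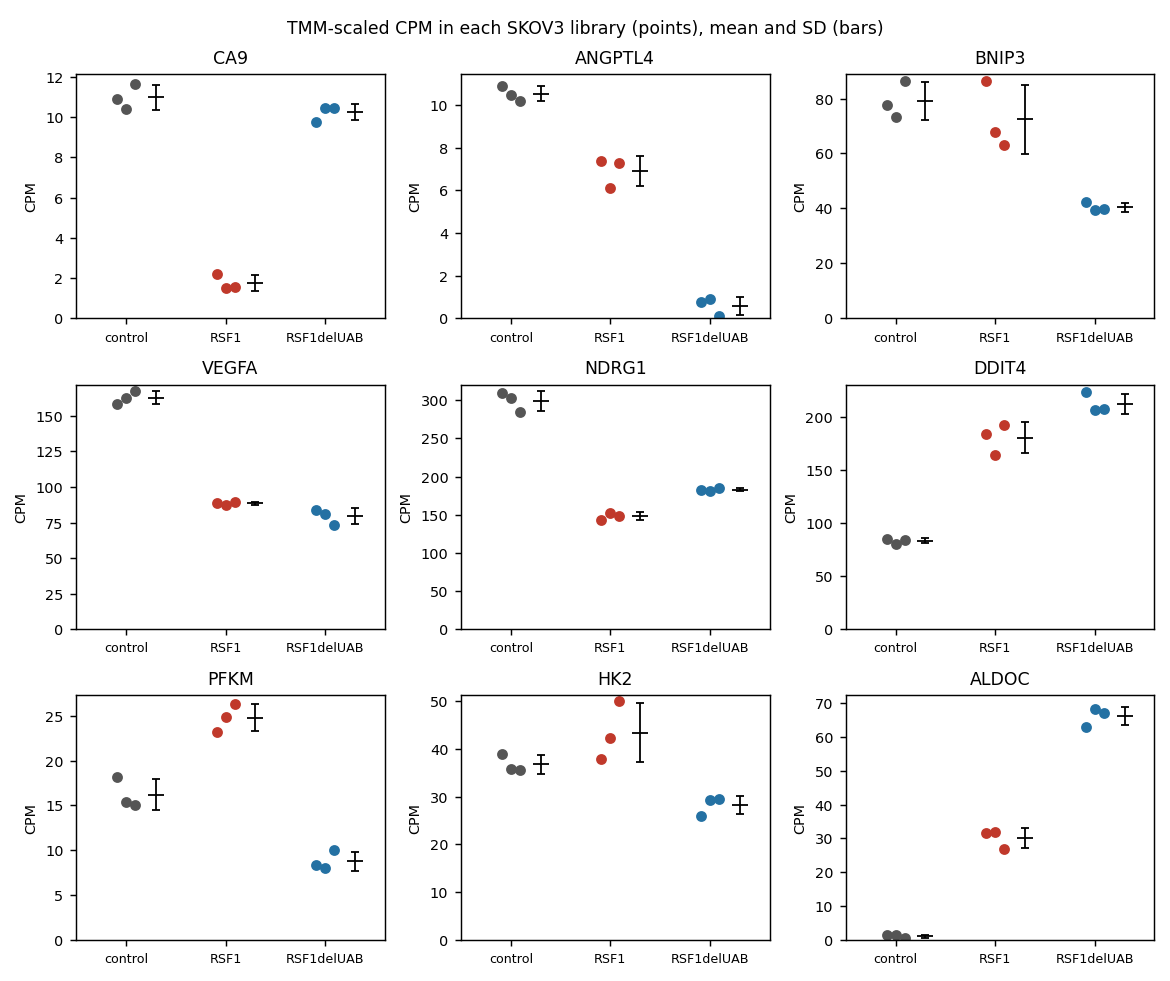
TMM-scaled CPM of 9 members in each SKOV3 library (points), with mean and SD beside them, on axes from 0. CA9 is low in the RSF1 libraries alone, ANGPTL4 and BNIP3 are lowest with RSF1delUAB, the means of PFKM and HK2 lie above control with RSF1 and below it with RSF1delUAB, and ALDOC is highest with RSF1delUAB.

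The direct comparison of RSF1 with RSF1delUAB bears on what the UAB region adds. It sets the constructs against each other, while the control libraries still entered the count filter, the scaling and the estimate of spread. RSF1 transcript itself was higher in the RSF1 libraries by 0.56 on the log2 scale (adjusted p = 5.07e-06), so the constructs were not matched in level. Of 33 members 14 were higher with RSF1 and 6 lower, where 38.6% of all genes passed, 18.5% higher and 20.2% lower. The median was 0.10, against 0.0017 for all genes, and the median absolute change 0.21, against 0.27. Groups did not overlap for 19 of the 20, and for 95.3% of all genes that passed. Without RSF1 replicate 1 the counts were 15 higher and 7 lower, and those of all genes went from 3088 and 3380 to 3374 and 3707.
Of the enzymes 6 were higher and 1 lower with RSF1 (all genes 18.5% and 20.2%). PFKM differed by 1.5 (SE 0.12, adjusted p = 2.61e-09), a 2.83-fold higher level. GPI stood at 406, 395 and 424 CPM with RSF1delUAB, log2 fold change 0.70 (SE 0.058, adjusted p = 6.94e-09), here with neighbours at 0.17. PGAM1 stood at 444, 421 and 384 CPM with RSF1 and 291, 261 and 289 with RSF1delUAB, log2 fold change 0.57 (SE 0.066, adjusted p = 8.13e-07). HK2 (0.62), ENO2 (0.33) and PFKP (0.20) were also higher, and ALDOC was lower (log2 fold change -1.14 (SE 0.099, adjusted p = 1.41e-08)). The PFKP call ended without RSF1delUAB replicate 2 and relative to its neighbours. For PFKM, GPI and PGAM1 every RSF1 library lay above every RSF1delUAB library. The large lower-pathway transcripts GAPDH, PGK1, ENO1, PKM and LDHA did not pass, with log2 fold changes from -0.05 (GAPDH) to 0.10 (PGK1).
In transport and regulation PFKFB4, at 15.4, 14.4 and 16.2 CPM with RSF1 (log2 fold change 0.42 (SE 0.11, adjusted p = 0.00368)), and PFKFB3 (log2 fold change 0.20 (SE 0.073, adjusted p = 0.0357)) were higher with RSF1. SLC2A1 (log2 fold change -0.27 (SE 0.061, adjusted p = 0.00162)) and PDK1 (log2 fold change -0.38 (SE 0.10, adjusted p = 0.00686)), at 34, 33.2 and 32.1 CPM with RSF1delUAB, were lower. The PFKFB3 groups overlapped, and its call ended without any 1 of 5 libraries (RSF1 replicates 2 and 3 and each RSF1delUAB replicate). That call also ended relative to its neighbours.
Of the other HIF targets 6 were higher and 3 lower with RSF1 (all genes 18.5% and 20.2%). ANGPTL4 was 11.2-fold higher, log2 fold change 3.49 (SE 0.28, adjusted p = 5.06e-09). BNIP3, at 86.5, 67.8 and 63 CPM with RSF1, was higher by 0.84 (SE 0.10, adjusted p = 1.15e-06). ADM was higher by 0.54 (SE 0.087, adjusted p = 4.64e-05). EGLN3 (0.86), P4HA1 (0.21) and CA12 (0.19) passed in the same direction. The calls of P4HA1 and CA12 ended relative to their neighbours, that of P4HA1 also without RSF1delUAB replicate 2 or 3, and that of CA12 without RSF1 replicate 2 or 3 or RSF1delUAB replicate 1 or 3. CA9 was 5.77-fold lower with RSF1, log2 fold change -2.53 (SE 0.17, adjusted p = 2.81e-10), and NDRG1 (-0.31, adjusted p = 0.000478) and DDIT4 (-0.24, adjusted p = 0.00976) were lower too. The neighbours of NDRG1 stood at -0.30. Under the neighbourhood offset, which rests on the neighbours' medians against control, NDRG1 read -0.093 and did not pass (adjusted p = 0.256). The DDIT4 call ended without RSF1 replicate 2 or RSF1delUAB replicate 1. CA9 and ANGPTL4 thus differed most between the constructs and in opposite directions, and neither had groups that overlapped.

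Several steps are served by 2 or 3 isozymes, and each isozyme's share of the step's transcripts was taken by TPM. The height of a share depends on the exon lengths of the genes, which are the same in all groups. With 3 against 3 libraries an exact permutation test cannot go below p = 0.1, and with 2 against 2 not below 0.33, so none of 24 share comparisons can pass 0.05. ALDOC made up 4.1% ± 1.69 (SD, n = 3) of the 2 aldolases in control libraries, 60.9% ± 4.58 with RSF1 and 75.1% ± 1.83 with RSF1delUAB (exact p = 0.1 for each pair), with the limit on ALDOA given above. The groups did not touch: the ranges were 2.28% to 5.62%, 56% to 65% and 73.1% to 76.5%. PFKM made up 2.8% ± 0.34 of the 3 phosphofructokinases in control, 4.03% ± 0.247 with RSF1 and 1.56% ± 0.16 with RSF1delUAB, again without overlap. PFKP held 65.6% ± 0.0708, 63.2% ± 0.637 and 60.4% ± 0.285. So the main isozyme of the step remained PFKP in all 9 SKOV3 libraries. HK2 held 16.3% ± 0.653 of HK1 and HK2 in control, 17.8% ± 1.33 with RSF1, where libraries overlapped with control, and 12.3% ± 0.804 with RSF1delUAB, where they did not. ENO2 stayed below 1% of enolase transcripts, at 0.324% ± 0.0132, 0.88% ± 0.0438 and 0.741% ± 0.00335. PFKFB4 held 18.8% ± 1.19 of PFKFB3 and PFKFB4 in control, 9.34% ± 0.954 with RSF1 and 8.07% ± 0.35 with RSF1delUAB. In OVCAR3 the scrambled peptide and UAB peptide libraries read 51% ± 0.909 and 65.9% ± 2.97 (n = 2) for ALDOC, 27.2% ± 0.755 and 33.3% ± 1.58 for PFKM, and 65.2% ± 0.983 and 50.4% ± 0.255 for PFKFB4. None of these 3 pairs overlapped (exact permutation p = 0.33 for each).

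**Figure D4:**
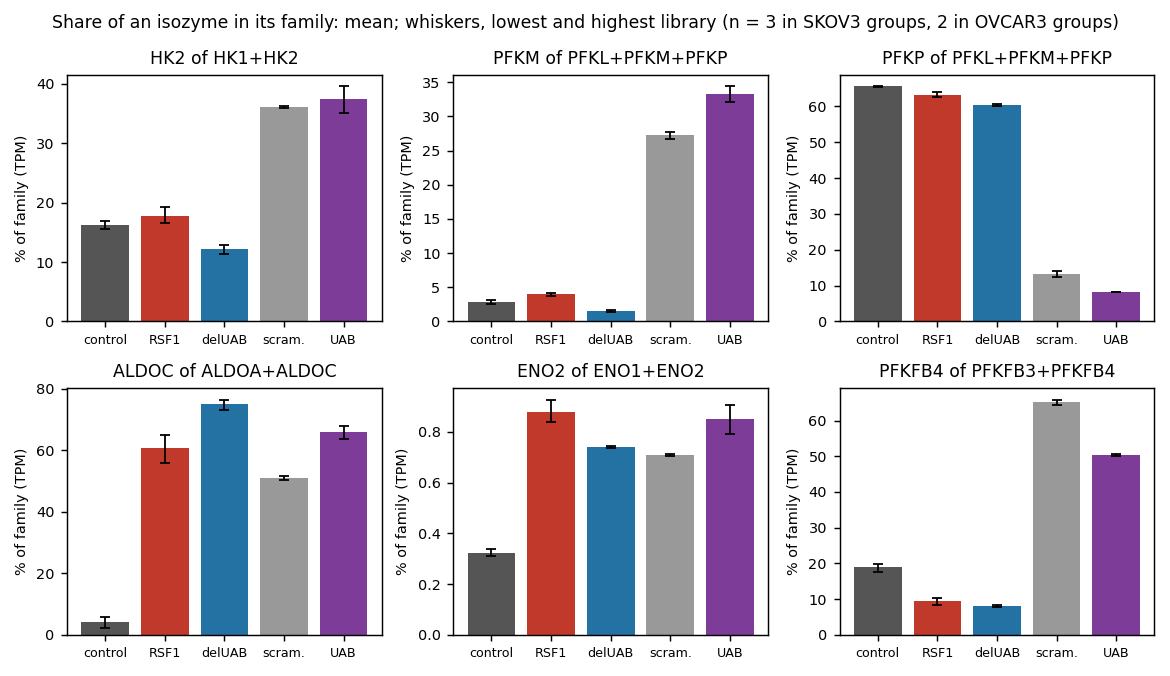
Share of 1 isozyme in its family, in percent of the family's TPM, per group; bars are means and whiskers run from the lowest to the highest library. ALDOC rises from 4.1% ± 1.69 to 75.1% ± 1.83 between control and RSF1delUAB, and PFKM is above control with RSF1 and below it with RSF1delUAB.

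In OVCAR3 the UAB peptide was compared with the scrambled peptide, to see what the isolated region does in cells that make their own RSF1. Of 32 members tested 2 rose and 5 fell, where 10.9% of 18359 genes passed, 5.45% higher and 5.46% lower. The median was -0.12, against 0.0089 for all genes, and the median absolute change 0.34, against 0.26. All 7 had groups without overlap, as had all 2004 genes that passed, with 2 libraries each. With library totals alone 5 rose and 4 fell, and the split of all genes moved from 1001 higher and 1003 lower to 1094 and 855.
Both rises were among the genes of transport and regulation. PFKFB3 went from 8.29 and 9.72 CPM to 20.3 and 17.5, log2 fold change 1.07 (SE 0.18, adjusted p = 0.00131). PDK1 went from 8.85 and 12.6 to 20.2 and 15 CPM, log2 fold change 0.72 (SE 0.21, adjusted p = 0.0402). The other tested genes within 10 Mb of PDK1 had a median of 0.29, and relative to them PDK1 did not pass. PFKFB3 was clearly apart, while the PDK1 call ended without scrambled replicate 1 (0.72 became 0.48) or UAB replicate 1 (also 0.48). Of the falls, SLC16A3, the lactate exporter, went from 106 and 132 to 65.5 and 67 CPM, log2 fold change -0.84 (SE 0.14, adjusted p = 0.00147). CA12 went from 55.1 and 37.9 CPM to 12.5 and 11.8, log2 fold change -1.93 (SE 0.19, adjusted p = 1.15e-05), a 3.82-fold lower level and the largest change among the members tested in this line. The UAB libraries lay close together and far under both scrambled libraries for CA12. DDIT4 went from 121 and 109 to 82.1 and 81.3 CPM, log2 fold change -0.49 (SE 0.13, adjusted p = 0.0267). PFKP went from 34.3 and 38.7 to 24 and 24.6 CPM, log2 fold change -0.59 (SE 0.15, adjusted p = 0.0188). ENO1 went from 4193 and 3578 to 2729 and 3043 CPM, log2 fold change -0.43 (SE 0.13, adjusted p = 0.0454). The ENO1 call ended under library totals alone and relative to its neighbours, whose median was -0.092. The calls of DDIT4, PFKP and ENO1 each ended when single libraries were left out: DDIT4 without scrambled replicate 1 or either UAB replicate, PFKP without scrambled replicate 2 or UAB replicate 1, and ENO1 without scrambled replicate 1 or either UAB replicate.
The other 25 did not pass. Among them ANGPTL4 went from 2.05 and 2.07 to 0.441 and 1.09 CPM (log2 fold change -1.44 (SE 0.47, adjusted p = 0.0638)), and HK1, PFKM, ALDOC, VEGFA and P4HA1 had adjusted p-values between 0.0656 and 0.0772. GAPDH, PGK1, TPI1 and NDRG1 had log2 fold changes between -0.033 (NDRG1) and 0.035 (GAPDH). CA9 had 1 and 7 reads with the scrambled peptide and 2 and 4 with the UAB peptide. CA12, which fell here, rose with both constructs in SKOV3, and PFKFB3 rose in OVCAR3 and with both SKOV3 constructs; the lines were fitted apart and the difference between them was not tested.

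**Figure D5:**
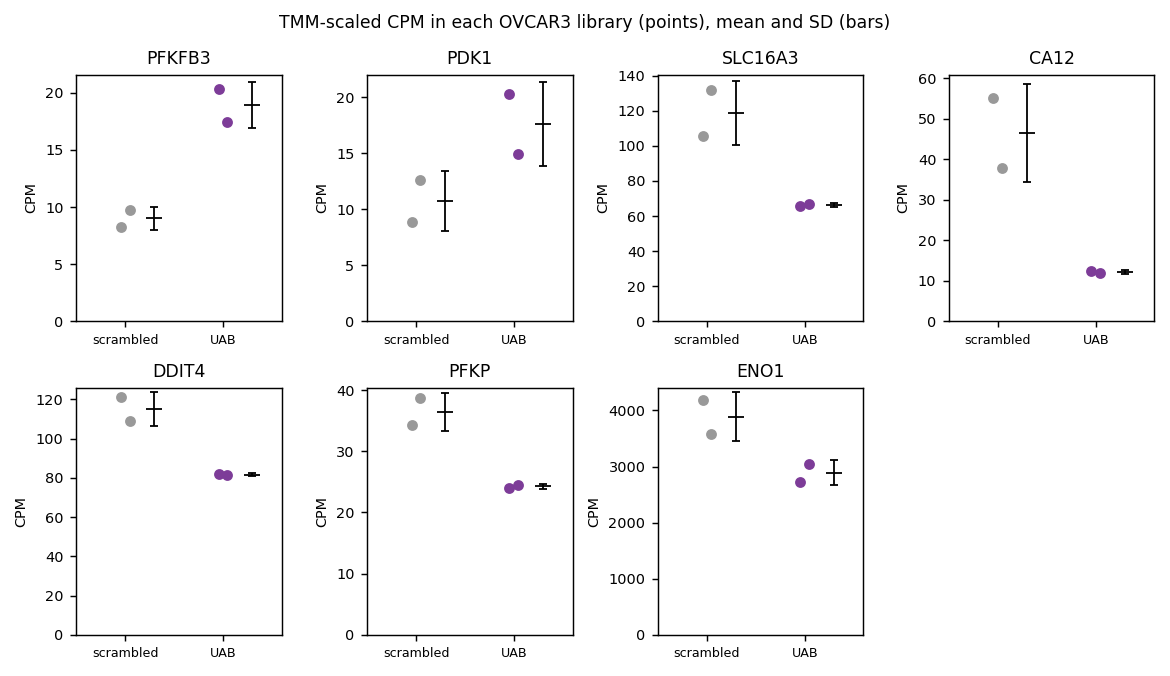
TMM-scaled CPM of the 7 members that passed the test in OVCAR3, in each of 2 scrambled peptide and 2 UAB peptide libraries (points), with mean and SD, on axes from 0. PFKFB3 and PDK1 are higher and SLC16A3, CA12, DDIT4, PFKP and ENO1 lower with the UAB peptide, with no overlap.

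Genes that set HIF activity were read from a list of 17. With RSF1, 7 of 16 tested rose and 7 fell, beside 34.3% higher and 32.9% lower over all genes. EPAS1, which encodes HIF-2 alpha, was 130.4 ± 3.42 CPM in control and 309 ± 36.7 with RSF1 (mean ± SD, n = 3), log2 fold change 1.24 (SE 0.077, adjusted p = 1.72e-11). With RSF1delUAB it was 121 ± 4.05 CPM and did not pass (-0.11, adjusted p = 0.215), and RSF1 against RSF1delUAB gave 1.35 (adjusted p = 2.34e-11). HIF1A, which encodes HIF-1 alpha, was 968 ± 37.7 CPM in control, 1127 ± 77.5 with RSF1 (log2 fold change 0.22 (SE 0.060, adjusted p = 0.00306)) and 1081 ± 28.7 with RSF1delUAB (0.16, adjusted p = 0.0253). So the RNA of the 2 alpha subunits moved unequally.
ARNT2, a partner subunit known from neurons, rose from 0.264 ± 0.117 CPM to 13.6 ± 1.91 with RSF1 and 25.9 ± 1.72 with RSF1delUAB (5.66 and 6.58, adjusted p = 7.14e-14 and 1.45e-15). CITED2, which competes with HIF for its coactivators, rose from 30.1 ± 1.48 to 79 ± 3.29 and 67.3 ± 4.25 CPM (1.39 and 1.16). EGLN1, the main HIF prolyl hydroxylase, fell from 42.8 ± 3.93 to 26.7 ± 1.73 and 18.6 ± 1.45 CPM (-0.68 and -1.2, adjusted p = 1.69e-06 and 7.01e-10). ELOC, a subunit of the VHL ligase, fell with RSF1 (-0.69), and the coactivator CREBBP fell with both (-0.57 and -0.70). With RSF1delUAB 6 of the 16 rose, RBX1 (0.84) among them, and 6 fell, LIMD1 (-0.77) among them (all genes 34.5% and 32.1%).
In OVCAR3 1 of 17 rose and 2 fell with the UAB peptide (all genes 5.45% and 5.46%). EPAS1 fell from 57.5 ± 2.62 to 20.2 ± 0.949 CPM (n = 2), log2 fold change -1.51 (SE 0.14, adjusted p = 1.11e-05), and CREBBP fell by 0.49 on the log2 scale (adjusted p = 0.0305). ARNT2, without reads in the scrambled libraries, stood at 3.18 ± 1.26 CPM in those of the UAB peptide, at least 49.3-fold higher against a floor of 3 counts over the group (adjusted p = 4.63e-05).

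Of 29 further HIF and hypoxia targets outside the members, 27 were tested in SKOV3. With RSF1 17 rose and 5 fell, with a median of 0.58, beside 34.3% higher and 32.9% lower and a median of 0.015 over all genes. LOX, which crosslinks collagen, went from 22.6 ± 0.78 CPM to 199 ± 2.62, log2 fold change 3.14 (SE 0.070, adjusted p = 2.73e-18), and PLOD2, a collagen lysyl hydroxylase, from 68.2 ± 4.03 to 187 ± 11, log2 fold change 1.46 (SE 0.070, adjusted p = 3.91e-13). TMEM45A rose by 1.92. BHLHE40, a transcriptional repressor, went from 372 ± 9.6 CPM to 164 ± 6.65, log2 fold change -1.18 (SE 0.062, adjusted p = 1.24e-12), and JMJD6 (-0.55) and KDM4B (-0.33) fell.
With RSF1delUAB 12 rose and 7 fell, with a median of 0.13, beside 34.5% higher and 32.1% lower and a median of 0.015 over all genes. LOX (2.22), PLOD2 (1.0) and BNIP3L (0.84) rose, and BHLHE40 (-0.43) and LOXL2 (-0.38) fell. Between the constructs 12 were higher with RSF1 and 3 lower (all genes 18.5% and 20.2%). LOX (0.92) and LOXL2 (0.78) were among the higher genes, while BHLHE40 (-0.76), WSB1 (-0.41) and MXI1 (-0.44) were lower. In OVCAR3 3 of 29 rose and none fell (all genes 5.45% and 5.46%): MXI1 (0.61, adjusted p = 0.0185), PPFIA4 (1.02, adjusted p = 0.0308) and ZNF395 (0.47, adjusted p = 0.0407).

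Of 22 carriers and isozymes outside the members, 11 were tested in SKOV3. There 5 rose and 3 fell with RSF1 (all genes 34.3% and 32.9%). With RSF1delUAB 3 rose and 5 fell (all genes 34.5% and 32.1%). SLC2A10, the carrier GLUT10, had no reads in the control libraries and stood at 14 ± 0.831 CPM with RSF1 and 17.7 ± 1.47 with RSF1delUAB, at least 213-fold and at least 270-fold higher against a floor of 3 counts over the control group. SLC2A12 went from 0.437 ± 0.0689 CPM to 1.92 ± 0.20 with RSF1 and 7.45 ± 0.577 with RSF1delUAB (2.11 and 4.07). SLC2A6 rose with RSF1 (0.85, adjusted p = 1.56e-07) and fell with RSF1delUAB (-0.74, adjusted p = 3.44e-06). PFKFB2, the PFKFB enzyme known from heart, fell from 43.6 ± 3.96 CPM to 13.8 ± 3.08 and 14.9 ± 1.12 (-1.66 and -1.55). HKDC1, a hexokinase-like gene, fell from 122 ± 2.32 CPM to 103 ± 7.78 with RSF1 and 57.7 ± 5.73 with RSF1delUAB (-0.24 and -1.08), whereas in OVCAR3 it rose from 2.22 ± 1.02 to 16.3 ± 0.00301 CPM (log2 fold change 2.88 (SE 0.26, adjusted p = 8.23e-06)). In that line 2 of 14 tested rose and 2 fell (all genes 5.45% and 5.46%), SLC2A6 among the falls (-1.0, adjusted p = 0.000878).

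Of 19 genes of pyruvate and lactate handling 18 were tested. Of these 4 were higher and 9 lower with RSF1 (all genes 34.3% and 32.9%). With RSF1delUAB 4 were higher and 10 lower (all genes 34.5% and 32.1%). The pyruvate dehydrogenase kinases moved apart. PDK4 went from 23.4 ± 1.85 CPM in control to 4.12 ± 0.896 with RSF1 (log2 fold change -2.51 (SE 0.15, adjusted p = 9.1e-12)) and 6.14 ± 0.74 with RSF1delUAB (-1.93, adjusted p = 1.63e-10). PDK3 fell as well (-1.1 and -0.80), while PDK2 rose from 14.4 ± 1.06 to 32.1 ± 1.63 and 43.3 ± 3.66 CPM (1.15 and 1.58). With the member PDK1, 3 of the 4 kinases were thus lower with RSF1. Pyruvate carboxylase PC (0.63 and 0.30) and LDHB (0.44 and 0.34), the heart-type lactate dehydrogenase, rose with both constructs. In OVCAR3 the lactate and pyruvate carrier SLC16A1 was the 1 gene of 18 that passed (all genes 10.9%), from 153 ± 2.38 to 209.5 ± 16.9 CPM (log2 fold change 0.45 (SE 0.13, adjusted p = 0.039)), beside the lower SLC16A3.
Of 13 genes of the pentose phosphate route and gluconeogenesis 9 were tested in SKOV3. Of these 5 were higher and 2 lower with RSF1 (all genes 34.3% and 32.9%). With RSF1delUAB 4 were higher and 1 lower (all genes 34.5% and 32.1%). Transketolase TKT, which links the pentose phosphates back to glycolysis, fell from 880.0 ± 24.3 CPM to 497 ± 17.3 and 629.9 ± 16.4 (-0.82 and -0.48, adjusted p = 8.64e-11 and 2.22e-07). PGLS (0.90 and 0.73) and G6PC3 (0.51 and 0.98) rose with both constructs, and PCK2, the mitochondrial phosphoenolpyruvate carboxykinase, rose with RSF1 (1.02). In OVCAR3 PCK1, the cytosolic form, was the 1 of 12 tested that passed (all genes 10.9%), from 0.451 ± 0.0878 to 5.07 ± 0.166 CPM (log2 fold change 3.47 (SE 0.37, adjusted p = 2.88e-05)).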

How the data were processed

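Counts of reads per gene, in 1 table per cell line, were used as the authors deposited them: whole numbers, not normalized. FastQC, STAR 2.7.9a and Subread, with the builds GRCh38, hg38 and GRCm38, stand in the submitters' processing notes; which annotation was counted, and with what use of strand, is not given in the sources used here. The ANK2 record, split over 3 lines, was rejoined. The name of the column taken as OVCAR3 scrambled replicate 2 has an unexplained letter.

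Each line was fitted by itself with edgeR 4.0.16 in R 4.3.3: TMM scaling, a filterByExpr minimum of 10 counts, all groups of a line in 1 fit, and the quasi-likelihood test with Benjamini-Hochberg adjustment over all tested genes. The threshold was an adjusted p of 0.05. The biological coefficient of variation was 0.0734 in SKOV3 (6 residual degrees of freedom) and 0.124 in OVCAR3 (2). CPM values are TMM-scaled, and TPM values divide by the deposited gene length, which holds all annotated exon bases of a gene. The median log2 fold change of the other tested genes within 10 Mb was taken for each member and is given above for some of them. Alternatives were upper-quartile, RLE and library-total scaling, DESeq2 1.42.0, limma-voom (limma 3.58.1), other count filters, pseudogene reads added, a neighbourhood offset, a replicate block, and leaving out each library. The offset took off each gene's neighbours' median against control or the scrambled peptide. Between the constructs it therefore need not equal the neighbours' median of that comparison. The fit was also run on simulated counts, and no statement above rests on that run.

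The members and lists were chosen with earlier results of these data known. Values of every library are given for the 3 members of each role with the smallest adjusted p in each direction, and for members passing in opposite directions in the 2 constructs; up to 3 genes per direction are taken from each further list.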

Additional observations from a re-analysis of the deposited data

How the results depend on the processing

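Of the members that passed, the 25 with RSF1 against control gave 399 values under the alternatives, of which 360 kept direction and call, 36 lost the call and 3 changed sign. For RSF1delUAB against control 353 of 383 kept both, for RSF1 against RSF1delUAB 301 of 320, and for the UAB peptide 89 of 105. The 3 sign changes with RSF1 came with the neighbourhood offset, at -0.075 for HK2, -0.058 for GPI and 0.34 for PFKFB4. The 2 with RSF1delUAB came with it too, at 0.15 for PFKP and -0.060 for ADM. Of these, PFKFB4 and PFKP passed as higher. The cause was not tested. Of the values of members that had not passed, 16 with RSF1, 6 with RSF1delUAB, 7 between the constructs and 19 with the UAB peptide passed under an alternative; with RSF1 10 of the 16 were PFKL. Others changed sign. With RSF1 these were ENO1 at 0.054 (upper-quartile), 0.031 (library totals), 0.0031 (minimum count 50) and 0.046 (neighbourhood offset), and with that offset BNIP3 at 0.20 and P4HA1 at -0.057. With RSF1delUAB PGAM1 stood at 0.14 under the offset. Between the constructs HK1 stood at 0.020 (upper-quartile), PFKL at 0.00025 and ANKRD37 at -0.10 (offset). With the UAB peptide TPI1 stood at -0.0011 (RLE scaling and DESeq2) and -0.0029 (no count filter), PGK1 at 0.012 and NDRG1 at 0.0075 (library totals), and ANKRD37 at 0.074 (offset). Leaving out single libraries moved P4HA1 from -0.036 to 0.058 and ENO1 from -0.095 to 0.033 with RSF1, and between the constructs HK1 from -0.056 to 0.012, LDHA from -0.045 to 0.050 and KDM3A from -0.0044 to 0.094. In OVCAR3 it moved PGK1 from -0.096 to 0.037, TPI1 from -0.12 to 0.14, GAPDH from -0.083 to 0.16, NDRG1 from -0.12 to 0.060 and ANKRD37 from -0.45 to 0.070.

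Enzymes lower numbered 3 with RSF1 under upper-quartile scaling and 3 to 7 without single libraries (3 without control replicate 2 or RSF1 replicate 2). With RSF1delUAB they numbered 5 under upper-quartile scaling, 5 under library totals and 4 to 7 without single libraries (4 without RSF1delUAB replicate 2). Between the constructs they numbered 3 with the offset and 1 to 2 without single libraries. With the UAB peptide library totals gave 5 members higher, 2 enzymes higher, 1 other HIF target higher and 1 enzyme lower, and the offset gave 1 enzyme higher. Without single libraries all genes higher ran from 633 to 1194 (633 without scrambled replicate 1), members higher from 1 to 2, members lower from 2 to 5, enzymes lower from 0 to 1 and other HIF targets lower from 1 to 3. Where that leaves 1 library in a group, it is assumed to vary like the others.

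No source states that replicate numbers pair the samples. Deviations from the group means correlated from -0.042 to 0.071 between same-numbered SKOV3 libraries and from -0.080 to 0.041 between others. In OVCAR3 the values were -0.149 and 0.149. With 2 libraries per group these can differ only in sign, so they cannot show whether the numbers pair. With the replicate block 3 members and 0 enzymes were lower with the UAB peptide, against 5 and 2 (DDIT4, PFKP and ENO1 lost their calls and ANGPTL4 gained one), and in SKOV3 PFKFB4 alone lost its call (RSF1 against control). A block with crossed numbers, chosen after seeing the data, gave 2560 genes higher and 2537 lower in OVCAR3, with 7 members higher and 10 lower, 2 enzymes higher and 5 lower, and 3 other HIF targets higher and 4 lower.

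Depth limits CA9 in OVCAR3, SLC2A3 in both lines, ALDOC in control libraries and ANGPTL4 with RSF1delUAB. Overlapping exons limit ALDOA, CA9 and ANKRD37 (40.3% shared with UFSP2 on the opposite strand).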
